A study of Arabidopsis thaliana with 6 samples.

Results

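Syntaxins and their partners are the SNARE proteins that fuse a secretory vesicle with the plasma membrane. The 10 genes described here, chosen by locus from 27826 rows of one expression table, are 7 plasma membrane syntaxins (SYP121, SYP122, SYP123, SYP124, SYP125, SYP131 and SYP132), the adaptor SNAP33 and the vesicle SNAREs VAMP721 and VAMP722. SYP121 brought the family into view because of its large difference between the groups, so the values of that comparison chose the members and are given as a description. The arrays measured RNA of whole Arabidopsis thaliana embryos at the 16-cell stage, 72 h after hand pollination, in 2 groups of 3 labelled biological replicates. The first group is nuclear RNA, from nuclei captured with INTACT, in which tagged nuclei are biotinylated and pulled down, here with a whole-embryo marker. The second group is cellular RNA, labelled total RNA, from intact embryos dissected with a micromanipulator. The strain, the promoters of the labelling system and the number of embryos per sample are not given in the sources used here. The groups differ in isolation method as well as in RNA compartment, which cannot be told apart.

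A plasma membrane fusion complex holds a syntaxin (a Qa-SNARE) and a Qbc-SNARE such as SNAP33 on the target membrane, and an R-SNARE such as VAMP721 or VAMP722 on the vesicle. Their helices zip into a bundle that draws the membranes together, and NSF with its SNAP adaptors takes the bundle apart for reuse. SYP121, also called PEN1, is known from leaves, where it is needed to stop powdery mildew fungi of other hosts at the cell wall and acts with SNAP33 and VAMP721 or VAMP722. In the dividing embryo the best known syntaxin is SYP111 (KNOLLE), which builds the cell plate.

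The values are RMA intensities, a background-corrected and normalized array signal, given here on the log2 scale, on which 1 unit is a doubling, and values of a group stand in the order of replicates 1 to 3. Array medians lay between 2.47 and 2.68. Lower quartiles were 1.96 to 2.13 on nuclear arrays and 1.82 to 1.88 on cellular arrays. Upper quartiles were 3.625 to 3.82 on nuclear arrays and 3.95 to 4.06 on cellular arrays. The low end of the values thus lay higher on nuclear arrays, and the high end lower. The table has no detection calls, so a gene near those medians may not have been detected, and a fold against such a level is compressed. No probe sequences were used here, and cross-hybridisation between family members was not tested. For a bulk sample, fewer cells of a type and less RNA per cell cannot be told apart.

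Most embryo markers, 13 of 14, had a lower mean in nuclear than in cellular RNA. Of 14 genes that mark the embryo, 7, 10 and 5 lay above the array's median on nuclear replicates 1 to 3, against 12 on each cellular array. WOX2, a homeobox gene of the apical lineage, was 3.11, 2.84 and 2.24 in the nuclear samples and 8.71, 8.10 and 6.10 in the cellular samples. LEC1, a regulator of embryo identity, was 2.26, 2.20 and 2.26 in the nuclear samples and 6.60, 5.99 and 6.24 in the cellular samples. ESR1, of the same list, was 20.0-fold lower in nuclear RNA. MP, ATML1 and PDF2 had lower means in nuclear RNA too, but lay well above the medians of the nuclear arrays. In nuclear samples 1 to 3 they measured 5.76, 5.99 and 5.23 (MP), 6.41, 5.12 and 4.73 (ATML1) and 6.20, 5.41 and 6.46 (PDF2). In limma MP passed (adjusted p = 0.0197), while ATML1 (adjusted p = 0.0697) and PDF2 (adjusted p = 0.163) did not. Of the embryo list 7 genes fell and 0 rose (limma; 12 lower and 0 higher at an unadjusted p under 0.05), and its summed intensity was 214 to 275 in the nuclear samples and 754 to 1886 in the cellular samples. That of 20 markers of the seed coat, the maternal tissue around the embryo, was 3131 to 7113 in the nuclear samples and 523 to 3888 in the cellular samples, where replicate 3 was highest. Of these 20 genes 0 passed in limma, with 4 higher and 0 lower at an unadjusted p under 0.05. The median difference of the list was 1.24, against 0.13 over all genes. In it 18 lay above 0, against 16601 of 27241 over all genes. With the filter on dim genes 1 was called higher, and without cellular replicate 3, 2 were. The lowest p were those of MYB5 (log2 difference 3.69, adjusted p = 0.0945) and AHA10 (1.85, adjusted p = 0.107). No value in the table was 0, and the part of these shifts in the results below was not tested.

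Of the 10 genes, SYP121 stood far above its cellular level in nuclear RNA and most others differed little. SYP121 had a mean 23.0-fold higher in nuclear than in cellular RNA and SYP122 one 3.01-fold higher, while SYP132 ran the other way at 2.67-fold lower. SNAP33, VAMP721 and VAMP722, the partners that serve these syntaxins, differed by at most 1.23-fold in the values as deposited. The 4 remaining syntaxins lay near the dim end of both groups. Past the threshold over all genes (a two-sided limma test, with Benjamini-Hochberg adjusted p under 0.05) was 1 member higher, SYP121, and 0 lower (2 higher and 1 lower at an unadjusted p under 0.05). The background was 5.86% of 27241 genes called, 1.15% higher and 4.71% lower. At an unadjusted p under 0.05 in limma it was 23.5%, with 2764 genes higher and 3630 lower. The unadjusted counts given for the members and for each list stand beside that share. Since this contrast chose the members, nothing is read from their counts. The median difference of the 10 genes was 0.29, against 0.13 over all genes, with 8 above 0 and 2 below. Over all genes, 16601 of 27241 lay above 0.

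**Figure D1:**
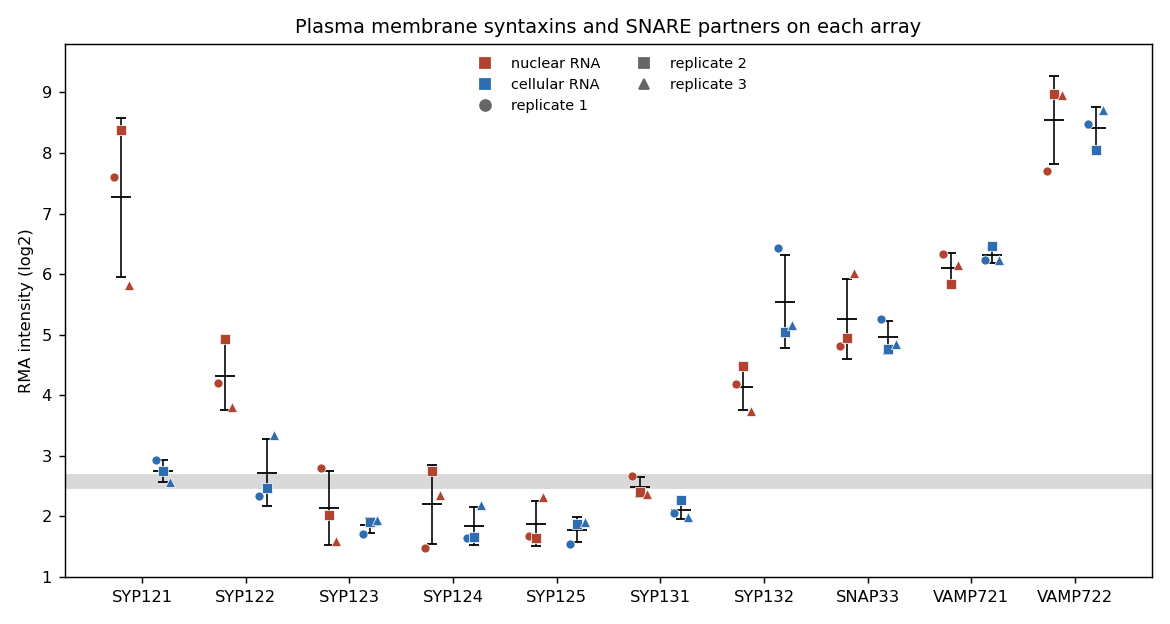
RMA intensity (log2) of the 10 genes on each array, nuclear RNA in red at the left of each gene and cellular RNA in blue at its right; bars are the mean and SD of 3 arrays and the grey band spans the array medians (2.47 to 2.68). SYP121 on nuclear arrays lies between 5.83 and 8.38, above all its cellular values, and SYP123, SYP124, SYP125 and SYP131 lie around or below the band.

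SYP121 and SYP122 are close relatives with overlapping functions at the plasma membrane, and loss of both in leaves is known to cause stunting with lesions. SYP121 (AT3G11820_at) measured 7.60, 8.38 and 5.83 in nuclear samples 1 to 3 and 2.93, 2.74 and 2.56 in cellular samples 1 to 3. The groups did not overlap: the lowest nuclear array, replicate 3, lay 2.90 above the highest cellular one. Its mean was 7.27 ± 1.31 in nuclear RNA and 2.74 ± 0.18 in cellular RNA (SD, n = 3 each), a level of cellular RNA just above the array medians. The log2 difference was 4.52 (SE 0.63, interval at 95% from 3.01 to 6.04), or 8.05-fold to 65.8-fold. A higher difference was measured for 4 of the 27241 genes. The nuclear arrays spread over 2.56 units and the cellular ones over 0.36.

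SYP122 (AT3G52400_at) measured 4.21, 4.92 and 3.81 in nuclear samples 1 to 3 and 2.34, 2.47 and 3.35 in cellular samples 1 to 3. These groups did not overlap either, with a gap of 0.46 between nuclear replicate 3 and cellular replicate 3. Its mean was 4.31 ± 0.56 in nuclear RNA and 2.72 ± 0.55 in cellular RNA (SD, n = 3 each). On cellular replicates 1 and 2 it lay below the array's median, so it may not have been detected there. The log2 difference was 1.59 (SE 0.40, interval from 0.64 to 2.55) and did not pass the threshold over all genes. Intervals are for single genes and are not adjusted for the number of genes.

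Within the nuclear group, SYP121 and SYP122 had the same order of arrays, replicate 2 highest and replicate 3 lowest. Within the cellular group their orders were opposite: SYP121 was highest on replicate 1 and SYP122 on replicate 3. The median of the seed coat list was 6.63, 5.62 and 5.69 in nuclear samples 1 to 3 and 3.12, 4.62 and 5.59 in cellular samples 1 to 3. The cellular values of SYP121 spread over only 0.36 units just above the array medians, so nothing is read from their order. The part of seed coat RNA in the values of both genes was not tested. Without cellular replicate 3 the log2 difference was 4.43 for SYP121 and 1.91 for SYP122, and SYP122 then passed the threshold (limma adjusted p = 0.0437). SYP121 missed it without cellular replicate 1 (difference 4.62, adjusted p = 0.0598) or cellular replicate 2 (difference 4.52, adjusted p = 0.0730).

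**Figure D2:**
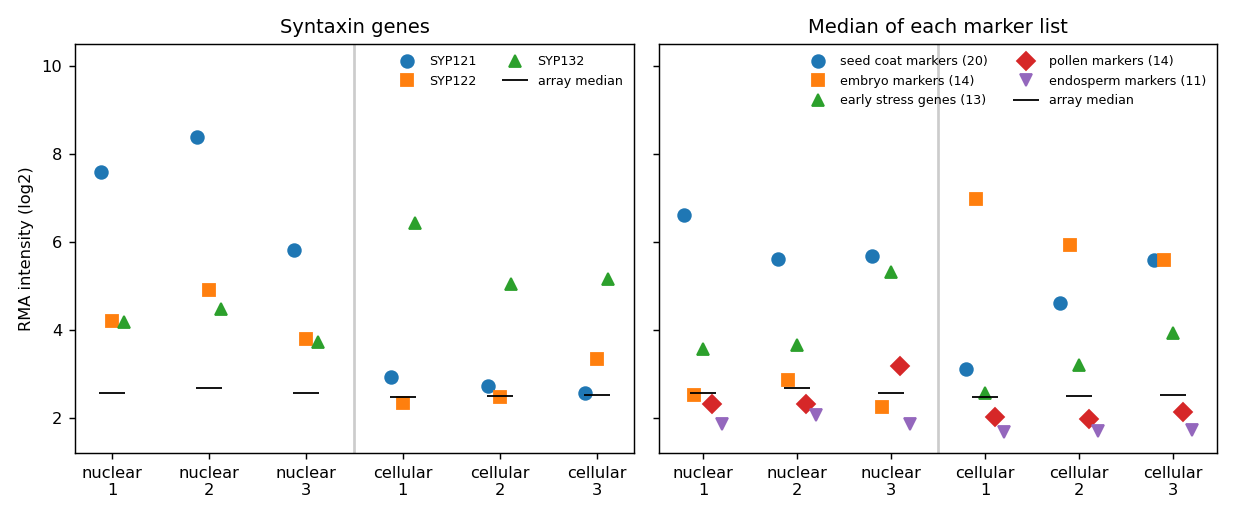
RMA intensity (log2) on each array, nuclear arrays at the left of each panel, of SYP121, SYP122 and SYP132 (left panel) and of the median of 5 marker lists (right panel, list sizes in the legend); black dashes are array medians. SYP121 lies just above the array median on all 3 cellular arrays, and the embryo median lies near the array median on all 3 nuclear arrays.

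Genes of early stress, which are quickly induced by wounding, touch or cold, were followed on the same arrays. Of 13 such genes, 2 rose in nuclear RNA and 0 fell (limma; 5 higher and 0 lower at an unadjusted p under 0.05), and the summed intensity was 1457 to 2954 in the nuclear samples and 672 to 1270 in the cellular samples. Their median was 3.56, 3.67 and 5.32 in nuclear samples 1 to 3 and 2.57, 3.21 and 3.94 in cellular samples 1 to 3. The groups overlap, since cellular replicate 3 lay above nuclear replicates 1 and 2. The median was highest on nuclear replicate 3. The genes that rose were RRTF1, 10.8-fold higher (SE 0.58, in log2 units; adjusted p = 0.0262), and WRKY40, 10.7-fold higher (SE 0.57, adjusted p = 0.0244), transcription factors induced by stress. Both lost the call without single arrays, with adjusted p up to 0.0987. Their part in the SYP121 values was not tested.

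SYP132 serves constitutive secretion and is known to act beside SYP111 in cell plate formation. SYP132 (AT5G08080_at) measured 4.18, 4.48 and 3.73 in nuclear samples 1 to 3 and 6.43, 5.05 and 5.16 in cellular samples 1 to 3. All nuclear arrays lay below all cellular ones, with a gap of 0.57, and cellular replicate 1 stood above the rest of its group. Its mean was 4.13 ± 0.38 in nuclear RNA and 5.55 ± 0.77 in cellular RNA (SD, n = 3 each), well above the array medians in both. The log2 difference was -1.42 (SE 0.42, interval from -2.44 to -0.39) and did not pass the threshold. Without cellular replicate 1 it was -0.98. The embryo marker median ran in the same direction. It was 2.52, 2.86 and 2.25 in the nuclear samples and 6.98, 5.95 and 5.58 in the cellular samples. Both were highest on cellular replicate 1. Among cellular arrays, SYP132 was lowest on replicate 2 and the embryo median on replicate 3. The part of embryo RNA in the SYP132 values was not tested.

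**Figure D3:**
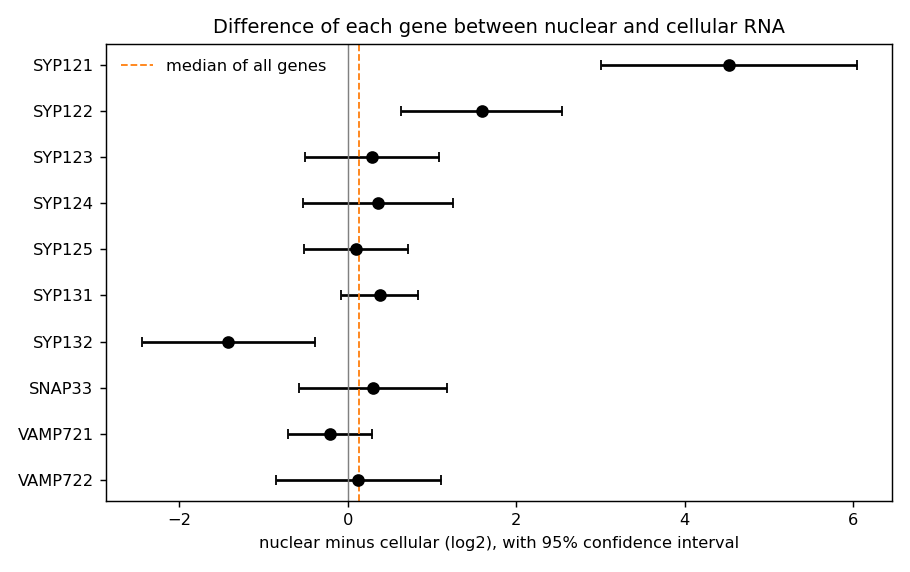
Nuclear minus cellular difference (log2) of each of the 10 genes, with its single-gene 95% confidence interval; the dashed line is the median of all genes (0.13). In the values as deposited, the intervals of SYP121 (3.01 to 6.04), SYP122 (0.64 to 2.55) and SYP132 (-2.44 to -0.39) leave out 0. Those of the other genes include it.

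The syntaxins of tip growth are SYP123, known from root hairs, and SYP124, SYP125 and SYP131, known from pollen. All 4 were dim, with both group means below 2.57, the median over all genes and arrays. SYP123 (AT4G03330_at) measured 2.80, 2.03 and 1.60 in the nuclear samples and 1.72, 1.91 and 1.95 in the cellular samples. Its groups overlap, since nuclear replicate 1 was the highest of the 6 arrays and nuclear replicate 3 the lowest. SYP124 (AT1G61290_at) measured 1.49, 2.75 and 2.35 in the nuclear samples and 1.64, 1.67 and 2.20 in the cellular samples. SYP125 (AT1G11250_at) measured 1.68, 1.64 and 2.32 in the nuclear samples and 1.54, 1.88 and 1.91 in the cellular samples. The groups of both genes overlap, and SYP125 was above its array's median on 0 of 6 arrays.

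SYP131 (AT3G03800_at) measured 2.67, 2.40 and 2.37 in the nuclear samples and 2.05, 2.26 and 1.99 in the cellular samples. Its groups did not overlap, by a gap of 0.11 between values at or below the array medians on all but nuclear replicate 1. The log2 differences were 0.29 (SE 0.33) for SYP123, 0.36 (SE 0.37) for SYP124, 0.10 (SE 0.26) for SYP125 and 0.38 (SE 0.19) for SYP131. Their intervals leave room for up to a 2.38-fold higher nuclear level, the upper bound of SYP124. The difference of SYP125 changed sign with another normalization (-0.10 after cyclic loess and -0.07 after quantile normalization).

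Markers of pollen were looked at beside these pollen syntaxins. Of 14 such genes 0 passed the threshold in limma (3 higher and 0 lower at an unadjusted p under 0.05), and their summed intensity was 71.6, 113 and 556 in nuclear samples 1 to 3 and 123, 66.9 and 69.9 in cellular samples 1 to 3. Nuclear replicate 3 stood out, with VGD1, a pectin methylesterase of the pollen tube, at 8.18 there and between 2.75 and 5.36 on the other 5 arrays. SYP125 was also highest on that array, at 2.32, whereas SYP124 was highest on nuclear replicate 2 and SYP131 on nuclear replicate 1. The lowest limma p of the pollen list were those of MGH3 (log2 difference 1.30, adjusted p = 0.133) and AT2G21480 (0.49, adjusted p = 0.204). Markers of endosperm, the nourishing tissue of the seed, had medians below those of all genes, at 1.86 to 2.08 on nuclear arrays and 1.68 to 1.74 on cellular arrays. At most 3 of the 11 lay above an array's median, on nuclear replicate 2, where PHE1, an imprinted MADS-box gene, was at 4.95. In that list 0 genes passed, and 0 at an unadjusted p under 0.05 (limma). Its lowest p were those of MEA (log2 difference 0.45, adjusted p = 0.308) and AGL90 (-0.31, adjusted p = 0.332).

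In all, nuclear and cellular arrays were fully apart for 4 of the 10 genes, 3 with all nuclear arrays above (SYP121, SYP122 and SYP131) and 1 with all below (SYP132). Over all genes this held for 33.0%, with 18.6% above and 14.4% below, and nothing is read from the difference, since the contrast chose the members.

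SNAP33, the Qbc-SNARE partner of SYP121, and the R-SNAREs VAMP721 and VAMP722 were above the array median on all 6 arrays. SNAP33 (AT5G61210_at) measured 4.81, 4.94 and 6.02 in the nuclear samples and 5.26, 4.76 and 4.85 in the cellular samples. Nuclear replicate 3 was the highest and the other 5 arrays overlap. Its log2 difference was 0.30 (SE 0.37, interval from -0.58 to 1.18), and -0.08 without nuclear replicate 3. It was larger after cyclic loess (0.75) and quantile normalization (0.72).

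VAMP721 (AT1G04750_at) measured 6.33, 5.83 and 6.15 in the nuclear samples and 6.24, 6.46 and 6.24 in the cellular samples. VAMP722 (AT2G33120_at) measured 7.70, 8.98 and 8.96 in the nuclear samples and 8.49, 8.05 and 8.71 in the cellular samples. Both genes had overlapping groups, and nuclear replicate 1 held the lowest VAMP722 value but the highest nuclear VAMP721 value. The log2 differences were -0.21 (SE 0.21, interval from -0.71 to 0.29) for VAMP721 and 0.13 (SE 0.40, interval from -0.85 to 1.10) for VAMP722. As ratios of nuclear to cellular RNA, the intervals run from 0.612 to 1.23 for VAMP721 and from 0.556 to 2.15 for VAMP722, so a change of that size is not shown to be absent. VAMP721 changed sign after cyclic loess (0.30) and quantile normalization (0.19). The difference of VAMP722 was larger after both, at 0.69 and 0.58.

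Side by side, the difference was 4.52 for SYP121 and 0.30, -0.21 and 0.13 for SNAP33, VAMP721 and VAMP722, a description, since SYP121 was chosen for its value. By the root mean square distance between log2 values, each gene centred on its mean over the 6 arrays, SYP122 was the nearest member to SYP121, at 1.60. The other 8 lay at 2.20 to 3.04, with SYP132 the farthest. Of 16151 genes outside the family brighter in one group than the median of all values, 318 were at least as near as SYP122.

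The 5 nearest of these genes by that distance were CA1, a carbonic anhydrase of the chloroplast (distance 0.4495), LHCB2.2, a chlorophyll-binding antenna protein (0.594), AT2G35260 (0.656), LOX2, a lipoxygenase of jasmonate synthesis (0.668), and AGP20, an arabinogalactan protein (0.750). CA1 measured 6.88, 7.86 and 4.79 in nuclear samples 1 to 3 and 2.38, 2.37 and 2.99 in cellular samples 1 to 3. Like SYP121 it was highest on nuclear replicate 2 and lowest, among nuclear arrays, on replicate 3. The log2 differences of the 5 genes lay between 3.35 (AT2G35260) and 4.14 (LOX2). They were chosen for likeness to SYP121, so these differences are a description.

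The other SNAREs and the secretion machinery were followed in 5 lists of 104 genes. Of these, 1 rose and 5 fell in nuclear RNA (limma), 5.77% of them against 5.86% of all genes, and their median difference was 0.11, against 0.13 over all genes. Over the alternatives in which no array was left out, 0 or 1 were higher and 1 to 5 lower.

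Of 15 further SNAREs of the plasma membrane and the cell plate, 0 rose and 2 fell, with 0 higher and 3 lower at an unadjusted p under 0.05. The list had a median of 0.10. SYP111 (KNOLLE), the syntaxin of cytokinesis, measured 3.92, 3.39 and 3.18 in the nuclear samples and 6.71, 6.66 and 7.09 in the cellular samples. The groups lay far apart, and it was 10.02-fold lower in nuclear RNA (log2 difference -3.32, SE 0.26, adjusted p = 0.00437). It passed under each of the 13 alternatives, with adjusted p up to 0.0359. NPSN11, a Qb-SNARE that joins SYP111 on the cell plate, measured 4.39, 3.60 and 4.03 in the nuclear samples and 6.16, 6.37 and 5.57 in the cellular samples. It was 4.07-fold lower (log2 difference -2.03, SE 0.31, adjusted p = 0.0194) and lost the call under 5 of 13 alternatives (adjusted p up to 0.0853).

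SYP71, the Qc-SNARE of the same complex, in which VAMP721 or VAMP722 is the R-SNARE, had a log2 difference of -1.04 with all nuclear arrays below the cellular ones, but did not pass (adjusted p = 0.0944). It is named here because it completes that complex, after its value was seen. SYP112, the closest relative of SYP111, had a difference of 0.20 at levels of 1.85, 2.91 and 1.94 in the nuclear samples and 2.34, 1.96 and 1.79 in the cellular samples. It too was named after its value was seen. The other VAMP72 genes, VAMP723 to VAMP727, had differences between -1.22 for VAMP726 and 0.79 for VAMP723. VAMP726 neighbours VAMP721 in the genome and VAMP723 neighbours VAMP722, going by their consecutive locus numbers, and 0 of these 5 genes passed, nor at an unadjusted p under 0.05 (limma).

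**Figure D4:**
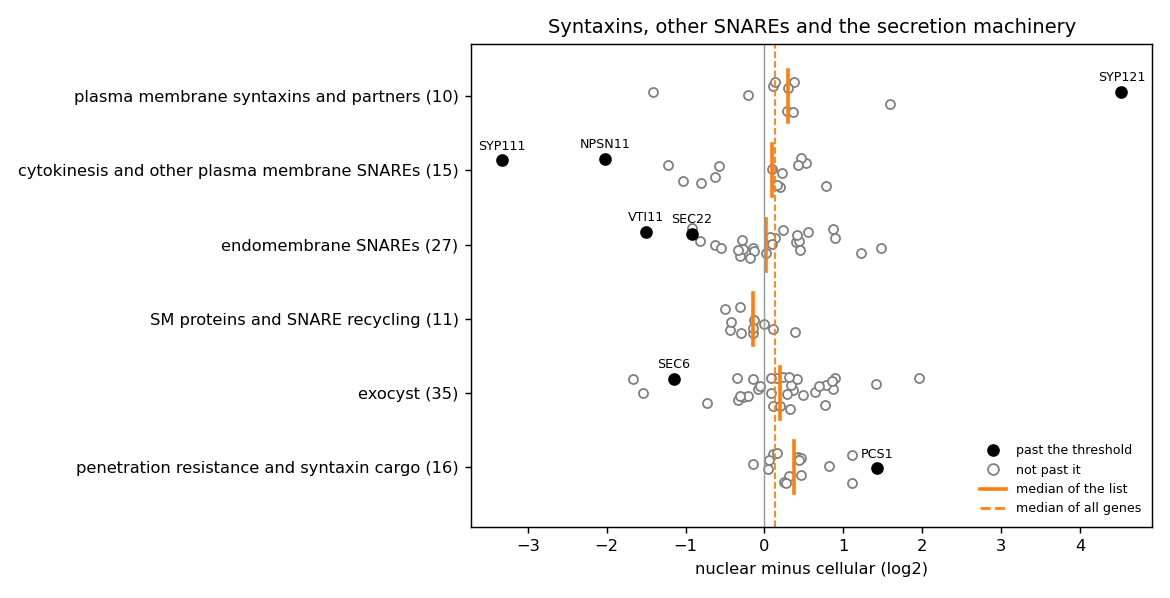
Nuclear minus cellular difference (log2) of the 10 genes and of 104 genes in 5 lists, one point a gene, filled where the gene passed the threshold over all genes; orange bars are list medians and the dashed line the median of all genes (0.13). The vertical scatter within a list has no meaning. SYP121 lies farthest right at 4.52 and SYP111 farthest left at -3.32.

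SNAREs of the endoplasmic reticulum, Golgi, trans-Golgi network and vacuole fell in 2 of 27 cases and rose in 0, with a median of 0.01 (2 higher and 3 lower at an unadjusted p under 0.05). VTI11, a Qb-SNARE of traffic to the vacuole, was 2.83-fold lower (SE 0.28, adjusted p = 0.0354). SEC22, an R-SNARE of traffic between endoplasmic reticulum and Golgi, was 1.89-fold lower (SE 0.16, adjusted p = 0.0301). SEC22 measured 5.28, 5.38 and 5.32 in the nuclear samples and 6.21, 6.25 and 6.29 in the cellular samples, a narrow spread within each group. VTI11 lost its call under 10 of 13 alternatives and SEC22 under 11, cyclic loess and quantile normalization included.

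Of 11 SM proteins, which clasp syntaxins, and factors of SNARE recycling, 0 passed the threshold in limma and 0 at an unadjusted p under 0.05. In this list 9 lay below 0, against 10640 of 27241 over all genes. The lowest p were those of VPS45, an SM protein of the trans-Golgi network, with a difference of -0.44 (adjusted p = 0.311), and KEU (KEULE), which binds SYP111 at the cell plate, with -0.31 (adjusted p = 0.371). KEU measured 3.28, 3.58 and 3.28 in the nuclear samples and 3.82, 3.52 and 3.72 in the cellular samples, so its groups overlap where those of SYP111 do not. NSF, the ATPase that recycles SNAREs, had a difference of -0.29. It is named for that role, outside the rule.

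The exocyst tethers vesicles before the SNAREs engage. Of its 35 genes, 0 rose and 1 fell (4 higher and 3 lower at an unadjusted p under 0.05). The gene that fell was SEC6, a core subunit, which was 2.22-fold lower (SE 0.20, adjusted p = 0.0289) with a call lost under 10 of 13 alternatives. SEC6 measured 5.02, 5.13 and 5.32 in the nuclear samples and 6.54, 6.25 and 6.12 in the cellular samples. The 23 genes of its EXO70 subunit, split off after the values were seen, had a median of 0.32 with 18 above 0, and the 12 other genes a median of -0.11 with 4 above 0. Over all genes, the median was 0.13 and 16601 of 27241 lay above 0. Several EXO70 genes were dim, with both group means below 2.57, and no background of equally dim genes was taken. Of the 23 EXO70 genes 0 passed in limma, and 4 were higher and 0 lower at an unadjusted p under 0.05.

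Of 16 genes of penetration resistance and of syntaxin cargo, 1 rose and 0 fell (2 higher and 0 lower at an unadjusted p under 0.05). The list had a median of 0.37, against 0.13 over all genes. In it 15 lay above 0, against 16601 of 27241 over all genes. The gene that rose, PCS1, a phytochelatin synthase also called PEN4 that takes part in pathogen defence, measured 3.91, 3.36 and 3.96 in the nuclear samples and 2.42, 2.14 and 2.39 in the cellular samples. It was 2.69-fold higher (log2 difference 1.43, SE 0.23, adjusted p = 0.0240), and lost the call under 5 of 13 alternatives (adjusted p up to 0.106). PEN2, a myrosinase, and PEN3, an ABC transporter, which act in a defence branch parallel to SYP121, did not pass, with differences of 1.11 and 0.43. PEN2 measured 2.62, 2.87 and 5.11 in the nuclear samples and 2.44, 2.17 and 2.66 in the cellular samples, so nuclear replicate 3 stood out and its groups overlap. KAT1 and KC1, potassium channel subunits known as partners of SYP121, had differences of 0.44 and -0.15 and did not pass either. These 4 are named for their roles, outside the rule.

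**Figure D5:**
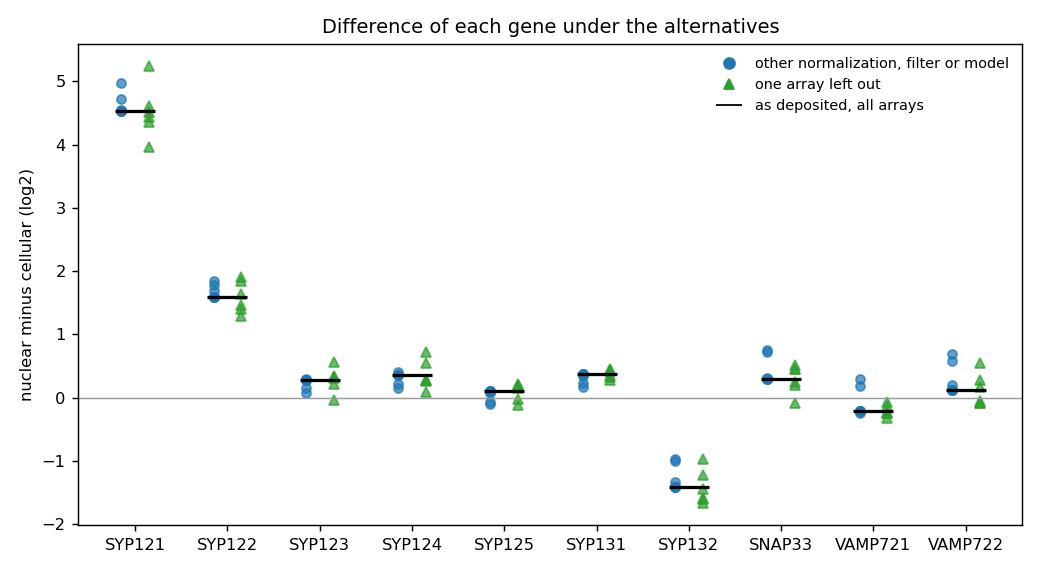
Nuclear minus cellular difference (log2) of each of the 10 genes as deposited (black dash), under other normalizations, filters or models (blue circles) and with one array left out (green triangles). SYP121 stays between 3.97 and 5.25, SYP122 between 1.29 and 1.91 and SYP132 between -1.67 and -0.98, while SYP123, SYP125, SNAP33, VAMP721 and VAMP722 lie on either side of 0.

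Over the 13 alternatives, the difference of SYP121 lay between 3.97 (without nuclear replicate 2) and 5.25 (without nuclear replicate 3), that of SYP122 between 1.29 and 1.91, and that of SYP132 between -1.67 and -0.98. SYP124 and SYP131 also kept their sign, between 0.09 and 0.72 and between 0.17 and 0.46, in the 12 alternatives that tested them. The other 5 genes, SYP123, SYP125, SNAP33, VAMP721 and VAMP722, changed sign at least once.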

How the data were processed

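The 6 arrays were deposited as one table of intensity values that the authors computed by RMA, as the labels' list of the submitters' processing notes has it. No RMA version, array type or genome build is given in the sources used here, so no coordinates are printed. The deposited intensities are linear. They were put on the log2 scale here, without further normalization or filter. A RefSeq gene table (TAIR10.1) matched 27241 rows, and the 585 others were left out. All 10 members and 176 list genes matched, and none shared all its values with another row.

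The fit over all genes used limma 3.58.1 (lmFit and eBayes, run in R 4.3.3, 4 residual and 2.33 prior degrees of freedom), nuclear minus cellular, with p-values adjusted over all 27241 genes. The test was checked on simulated data. The members, the 10 gene lists and the tests were chosen with earlier results of these data known. Named genes are the members, the 5 genes most like SYP121 and, per list, the 2 called genes that rose most and the 2 that fell most, or else the 2 lowest p. A few others are named outside this rule, for their role or their values. Among the marker lists these are LEC1, MP, ATML1, PDF2, VGD1 and PHE1. Same-numbered arrays did not deviate together (correlations of -0.05, -0.06 and -0.01), so replicate numbers were not used as pairs. Nothing in the labels says more of the replicates than that they are biological, and 3 arrays a group limit the precision. Alternatives were cyclic loess, quantile normalization, a filter on dim genes (16157 kept), array weights, a replicate block, a trended robust variance, all rows of the table, and each array left out.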

Additional observations from a re-analysis of the deposited data

How the results depend on the processing

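Cyclic loess, which took the median difference of all genes from 0.13 to 0.02, gave 489 higher and 846 lower genes, against 313 and 1284 as deposited. The replicate block, where numbers do not pair the arrays, gave 118 higher and 571 lower genes. Leaving out single arrays gave 28 to 419 higher and 254 to 1688 lower genes. Among the members it gave 0 to 2 higher, with 0 without cellular replicate 1 or 2 and 2 without cellular replicate 3, and the other alternatives gave 1, the replicate block included. Of the secretory pathway genes, 5 lower became 2 after cyclic loess, 2 after quantile normalization, 3 with the filter on dim genes, 2 with the trended robust variance, 1 with the replicate block and 1 to 3 with an array left out, and 1 higher became 0 with the replicate block and 0 to 1 with an array left out. Of the marker and stress genes, 2 higher became 1 with the replicate block and 0 to 4 with an array left out, and 7 lower became 4 to 8.

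After cyclic loess the sign turned for SYP125 (-0.10) and VAMP721 (0.30), and with quantile normalization for SYP125 (-0.066) and VAMP721 (0.19). With an array left out it turned for SYP123 without nuclear replicate 1 (-0.045, range -0.045 to 0.56), SYP125 without nuclear replicate 3 (-0.12) and cellular replicate 1 (-0.016, range -0.12 to 0.22), SNAP33 without nuclear replicate 3 (-0.080, range -0.080 to 0.52), and VAMP722 without nuclear replicate 2 (-0.088), nuclear replicate 3 (-0.079) or cellular replicate 2 (-0.055, range -0.088 to 0.55). The cause was not tested. The 4 dim syntaxins lie near the array medians, and there are no detection calls.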
